A study of Mus musculus with 20 samples.

Results

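The genes described here are 30 named genes of DNA repair and of the DNA damage checkpoint, measured in primary mouse embryonic fibroblasts with and without the transcription factor E2F4. The list was set by gene name. It falls into 15 genes of homologous recombination and crosslink repair, 4 of break sensing and postreplication repair, 4 checkpoint kinases and 7 of excision and mismatch repair. Each gene was read from its brightest probe set among those annotated to 1 gene. Of the 30 genes, 24 had such a probe set, out of 12393 genes in all, and 22 of these also passed a filter on low signal, as did 7436 genes in all. Brip1, Palb2, Fancd2, Xrcc2, Xrcc3 and Neil1 had none in the tables used and were not analysed here. Bard1 and Fancg lay below the filter.

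Embryos were E2F4 null or wild type, both taken at 13.5 dpc (days after conception), and the labels give no treatment. RNA came from 10 cultures of 5 E2F4 null embryos, 2 cultures each, and from 10 cultures of 3 wild type embryos, 3 or 4 each. The labels do not say how the E2F4 allele was made, nor the strain, sex, litter or passage. Cultures of 1 embryo are repeats of that embryo, so each value below is the mean of an embryo's cultures. Values are MAS5 signals, a brightness on a linear scale that the authors had set to the same average on every array. The signal of E2f4 itself, by its 1 probe set, was 157, 167, 156, 155 and 197 in null embryos 1 to 5, against 209, 212 and 222 in wild type embryos 1 to 3. Every null embryo was lower, but some signal was measured in all of them, and the difference of -0.35 (log2, SE 0.10) did not pass across all genes (limma adjusted p = 0.363). Whether that probe set lies in the removed part of the gene is not given.

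All 9 fibroblast markers passed the filter, with summed signals of 89710 to 103900 in null embryos, against 99620 to 104000 in wild type. Endothelial, epithelial and erythroid markers summed to at most 103, 286 and 45.7 in null embryos, against 119, 259 and 25.8 in wild type. None of the endothelial or erythroid markers passed the filter. Macrophage markers summed to 1076 to 3855 in null embryos, against 1385 to 2052 in wild type. Neural markers summed to 633 to 1204 in null embryos, against 720 to 955 in wild type, and skeletal muscle markers to 365 to 3383 in null embryos, against 483 to 4167 in wild type. In such bulk RNA, fewer cells of a type and less RNA per cell cannot be told apart.

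Cells use different repair systems at different times. Homologous recombination copies the sister chromatid to mend broken DNA, so it works in S and G2 phase, and its genes are mostly transcribed together with those of DNA replication. The Fanconi anaemia genes feed crosslinked DNA into the same route. Nucleotide excision repair, base excision repair and mismatch repair cut out damaged or mispaired bases and refill the gap from the other strand. The excision pathways are used throughout the cell cycle. E2F factors bind promoters of replication genes and of several repair genes. E2F4 is regarded as one of their repressive members, which sits on these promoters in resting cells with the pocket proteins p107 and p130.

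E2F proteins bind short words such as TTCCCGC and its variants TTCGCGC and TTGGCGC or TTGCCGC. These were searched on both strands, and a window with any of them, overlapping or not, counted once. The windows were RefSeq promoters of build GRCm38.p6, from 250 bases before to 50 after the start. Of the 24 listed genes with such a window, 13 held at least 1 E2F word, or 54.2%. The share was 21.1% of the 6117 tested genes with a window and 9.6% of all 32851 windows. By class, the word was in 8 of 12 recombination and crosslink genes, 3 of 4 checkpoint kinases, 2 of 6 excision and mismatch genes and 0 of 2 break sensing genes. Among tested genes of related lists, it was in 16 of 27 replication genes and 2 of 16 mitosis genes. It was also in 11 of 21 other recombination, crosslink and break repair genes and 2 of 9 other checkpoint genes. Other excision, mismatch and direct repair genes held it in 14 of 32. The CHR word TTTGAA, found in promoters of mitotic genes, was in 1 of the 24, against 12 of 16 mitosis genes and 17.9% of all windows. A match is a stretch of letters, and binding was not measured.

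Windows of 5 genes that the results below turn on are printed 5′ to 3′ on the gene's strand, with E2F words in capitals. Rad51ap1, at chr6:126939538-126939837 on the minus strand, holds its word from 12 bases after the start. Chek1, at chr9:36726609-36726908 on the minus strand, holds it from 43 bases after. In Msh6, at chr17:87974800-87975099 on the plus strand, it begins 16 bases after the start. In Ercc1, at chr7:19344821-19345120 on the plus strand, the word begins at position -39. Rad54l, at chr4:116123640-116123939 on the minus strand, has none in this window.
Rad51ap1: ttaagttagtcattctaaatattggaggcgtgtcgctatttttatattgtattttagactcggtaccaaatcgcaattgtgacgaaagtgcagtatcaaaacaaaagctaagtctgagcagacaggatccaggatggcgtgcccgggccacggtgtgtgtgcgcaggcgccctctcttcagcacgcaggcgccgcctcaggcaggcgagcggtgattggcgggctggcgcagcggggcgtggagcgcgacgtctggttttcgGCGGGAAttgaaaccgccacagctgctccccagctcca
Chek1: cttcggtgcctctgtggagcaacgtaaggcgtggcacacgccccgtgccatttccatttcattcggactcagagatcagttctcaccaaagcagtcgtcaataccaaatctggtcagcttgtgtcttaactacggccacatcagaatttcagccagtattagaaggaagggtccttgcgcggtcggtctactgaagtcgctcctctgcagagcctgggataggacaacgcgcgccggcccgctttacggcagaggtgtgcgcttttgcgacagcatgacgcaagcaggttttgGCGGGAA
Msh6: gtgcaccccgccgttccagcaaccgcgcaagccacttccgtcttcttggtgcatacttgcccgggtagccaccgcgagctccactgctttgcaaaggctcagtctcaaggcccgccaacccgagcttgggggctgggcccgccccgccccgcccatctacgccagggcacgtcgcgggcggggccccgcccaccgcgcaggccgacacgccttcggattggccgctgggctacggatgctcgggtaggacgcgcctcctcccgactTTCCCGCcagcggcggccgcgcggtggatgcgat
Ercc1: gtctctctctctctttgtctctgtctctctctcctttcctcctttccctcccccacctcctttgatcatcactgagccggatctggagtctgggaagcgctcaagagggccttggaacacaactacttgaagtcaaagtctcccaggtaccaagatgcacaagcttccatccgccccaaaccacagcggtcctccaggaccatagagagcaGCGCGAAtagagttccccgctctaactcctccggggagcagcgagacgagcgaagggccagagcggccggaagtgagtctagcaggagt
Rad54l: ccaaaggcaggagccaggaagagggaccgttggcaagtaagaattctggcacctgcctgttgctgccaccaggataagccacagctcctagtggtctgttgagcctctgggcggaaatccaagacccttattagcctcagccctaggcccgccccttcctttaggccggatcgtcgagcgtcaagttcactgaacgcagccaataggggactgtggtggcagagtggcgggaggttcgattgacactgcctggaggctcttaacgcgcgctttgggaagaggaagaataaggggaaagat

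The first comparison asked whether loss of E2F4 changed these genes. None of the 22 tested genes passed the test. By limma on log2(signal + 16) over the 5 null and 3 wild type embryos, adjusted p ran from 0.610 to 0.977, and none had an unadjusted p under 0.05. Over all genes 1 of 7436 was called, or 0.0134%. At an unadjusted limma p under 0.05, 296 of the 7436 were higher in null embryos, or 3.98%, and 353 were lower. Null and wild type embryos overlapped for all 22 genes, while among all genes the null embryos lay fully above wild type for 2.95% and fully below for 3.71%. The differences, null minus wild type, lay above 0 for 18 of the 22 genes, with a median of 0.11 (log2), where 48.9% of all genes lay above 0 and the median was 0.00. This lean depended on wild type embryo 2: without it 9 of 22 lay above 0, and the median was -0.01. Without wild type embryo 3 the count was 18 of 22, and the median was 0.216.

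**Figure D1:**
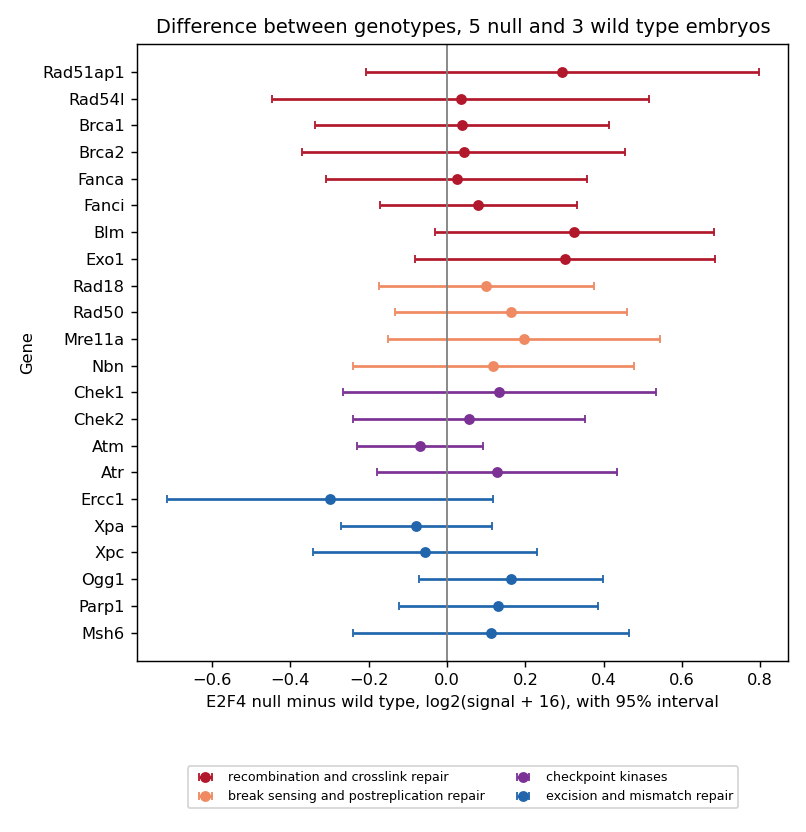
Difference of each gene between genotypes (E2F4 null minus wild type, log2(signal + 16), horizontal axis) with its 95% interval from limma, for the 22 tested genes coloured by class. Every interval includes 0, and the points run from -0.30 for Ercc1 to 0.32 for Blm.

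Among the recombination genes, the largest differences were those of Blm, Exo1 and Rad51ap1. Blm, a helicase that dissolves recombination intermediates, had signals of 224, 225, 262, 282 and 276 in null embryos 1 to 5, against 217, 147 and 245 in wild type embryos 1 to 3. Wild type embryo 2 was lowest of the 8 and embryo 3 lay among the null embryos. The difference was 0.32 (log2, SE 0.16, 95% interval -0.03 to 0.68), with a limma adjusted p = 0.610. Exo1 is a nuclease that resects DNA ends and also serves mismatch repair. It averaged 400 ± 55.7 in null embryos (SD, n = 5) and 327 ± 80.9 in wild type (n = 3), a difference of 0.30 with an interval of -0.08 to 0.68. Rad51ap1, which promotes the pairing of DNA strands in recombination, had 336, 418, 484, 530 and 502 in null embryos, against 406, 250 and 489 in wild type. Its difference of 0.29 had the widest interval of the 22 genes, -0.21 to 0.80, and both genotypes held low and high embryos. Without wild type embryo 2 the differences of Blm, Exo1 and Rad51ap1 were 0.125, 0.101 and 0.012.

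The other tested recombination and crosslink genes lay close to 0 when all embryos were used. Brca1, a ubiquitin ligase subunit that steers broken DNA into recombination, averaged 308 ± 40.4 in null embryos (SD, n = 5) and 306 ± 79.1 in wild type (n = 3). Brca2, which acts in homologous recombination, averaged 210 ± 20.7 in null embryos and 209 ± 64.1 in wild type. Rad54l, a DNA motor protein of recombination, averaged 265 ± 52.5 in null embryos and 261 ± 74.2 in wild type. Fanca and Fanci, both of the Fanconi anaemia pathway, differed by 0.02 and 0.08. The intervals of these 5 genes reached from -0.45 to 0.52 at their widest, for Rad54l, so changes of that size could not be detected. All 8 tested genes of this class lay above 0, with a median of 0.06, and 4 did without wild type embryo 2, with a median of -0.04. Without that embryo Rad54l and Brca2 were at -0.208 and Brca1 at -0.167. Without wild type embryo 3 the median was 0.216. Fancg, below the filter, had 76.2, 70.8, 87.5, 87.1 and 81.9 in null embryos, against 68.8, 57.7 and 70.8 in wild type. Its embryo means on the log2 scale did not overlap, though null embryo 2 and wild type embryo 3 nearly tied in signal. The difference was 0.25 (SE 0.12), and 0.08 (SE 0.14) by its second probe set, with a mean of 63.5. Fancg was left out of the test because its mean of 73.5 was under the filter. Bard1, the partner of Brca1, averaged 14.1 in null embryos and 16.1 in wild type, too dim to compare.

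Genes that sense breaks differed by 0.10 to 0.20. Mre11a, Rad50 and Nbn encode the complex that first binds broken ends. Mre11a had 413, 461, 567, 575 and 643 in null embryos, against 456, 390 and 534 in wild type, a difference of 0.20 with an interval of -0.15 to 0.55. Rad50 differed by 0.16 and Nbn by 0.12, and Rad18, a ubiquitin ligase that lets synthesis pass damaged bases, by 0.10. All 4 genes lay above 0 and 1 of 4 did without wild type embryo 2. Of the checkpoint kinases, Chek1 and Atr, the pair that responds to stalled replication, differed by 0.13 each. Chek2 and Atm, the pair that responds to broken DNA, differed by 0.06 and -0.07. Atm had the narrowest interval of the 22 genes, -0.23 to 0.09, with signals of 335, 382, 373, 358 and 348 in null embryos, against 397, 378 and 361 in wild type. Atm thus varied little in either genotype.

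The excision and mismatch genes were split 3 above and 3 below 0, with a median of 0.03 that was 0.02 without wild type embryo 2. Leaving out another embryo gave medians from -0.006, without null embryo 5, to 0.072, without wild type embryo 3. Ercc1, a subunit of the nuclease that cuts on the 5′ side of bulky damage, had 1086, 1254, 996, 849 and 897 in null embryos, against 1081, 1729 and 1027 in wild type. Its high value in wild type embryo 2 set it apart from the other 7 embryos. The difference was -0.30 (log2, SE 0.18), the lowest of the 22 genes, with a limma adjusted p = 0.686. Without that embryo it was -0.06. Xpa and Xpc, which verify and recognise bulky damage, differed by -0.08 and -0.06. Ogg1, a glycosylase that removes oxidised guanine, differed by 0.16, Parp1, which marks strand breaks with poly(ADP-ribose), by 0.13, and Msh6, a subunit of the mismatch sensor, by 0.11.

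The related genes on the lists of the same pathways gave no call either. Of 29 other recombination, crosslink and break repair genes tested, 22 lay above 0 with a median of 0.07, and those with the smallest p were Rpa3, a subunit of the protein that coats single strands, Recql and Recql4, both helicases (0.21, 0.28 and 0.22). Among 13 other checkpoint genes 8 lay above 0, with a median of 0.04, headed by the phosphatases Cdc25b and Cdc25c (0.28 and 0.24) and the clamp subunit Hus1 (0.19). Of 35 other excision, mismatch and direct repair genes, 22 lay above 0 with a median of 0.02. Mad2l2, a subunit of a polymerase that copies past damage, averaged 246 ± 19.4 in null embryos (SD, n = 5) and 193 ± 11.6 in wild type (n = 3), with no overlap. Its difference of 0.33 (SE 0.09) did not pass, with a limma adjusted p = 0.363. It was the 1 gene of the 35 whose null embryos lay fully above wild type, as 2.95% of all genes did. Apex1 and Ercc8 followed at 0.20 and 0.16. Replication genes had a median of 0.11 and mitosis genes of 0.14, with Dbf4, Rfc4 and Rrm1 at 0.30, 0.35 and 0.15 and Bub1b, Nusap1 and Aurkb at 0.27, 0.30 and 0.29. None of these passed. Wild type embryo 2 was the lowest of the 3 wild type embryos in all 32 replication and all 20 mitosis genes tested. It was so in 25 of the 29, 8 of the 13 and 17 of the 35 genes of the other lists, against 43.0% of all genes.

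The second comparison asked how far embryos of 1 genotype differed. Among the wild type embryos 16 of the 22 genes differed beyond the spread of their cultures (limma F test, adjusted p under 0.05), while 50.1% of all genes did. Their p-values rest on cultures of 3 embryos and say nothing of a wider population. In 16 of the 22 genes wild type embryo 2 was the lowest of the 3, which it was for 43.0% of all genes. Rad51ap1 had 250 in this embryo, against 406 and 489 in wild type embryos 1 and 3 (F = 15.9), and Brca2 139 against 223 and 265 (F = 28.6). Msh6 had 416 against 574 and 700 (F = 63.1, limma adjusted p = 1.8e-06). Ercc1 went the other way, with 1729 against 1081 and 1027 (F = 72.8, limma adjusted p = 8.7e-07). Genes that did not pass were Fanci, Chek2, Atm, Xpa, Xpc and Ogg1, with ranges between embryos of 0.12 to 0.36 (log2). Without wild type embryo 2 the calls were 2, Fanca and Msh6, against 15.1% of all genes.

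All 8 tested recombination and crosslink genes were lowest in wild type embryo 2, and 7 of them passed. On the log2 scale that embryo lay below the mean of wild type embryos 1 and 3 by a median of -0.61 in the recombination class, -0.43 in the break sensing class and -0.24 among the kinases. In the excision and mismatch class the median was 0.12, and over all tested genes it was -0.01. This class was itself divided: Ercc1, Xpc and Xpa lay above by 0.71, 0.29 and 0.23, Ogg1 by 0.02, and Parp1 and Msh6 below by -0.28 and -0.59. Replication and mitosis genes had medians of -0.66 and -0.64.

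Among the null embryos 7 of the 22 genes passed the F test, while 22.9% of all genes did. These were Rad51ap1, Rad54l, Mre11a, Chek1, Ercc1, Parp1 and Msh6. Chek1 had 283, 322, 401, 415 and 454 in null embryos 1 to 5 (F = 11.8, limma adjusted p = 0.00389), so null embryos 1 and 2 lay below the other 3. Rad54l had 191, 226, 301, 300.4 and 304 (F = 9.18), with the same 2 embryos low. In Ercc1 the order was turned round, with 1086 and 1254 in null embryos 1 and 2 and 849 to 996 in the others (F = 15.6, limma adjusted p = 0.00136). Brca1, Brca2, Blm and Exo1 had ranges of 0.32 to 0.46 and did not pass. Without null embryo 1 or null embryo 2 the calls were 4 each, among 19.0% and 13.3% of all genes.

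**Figure D2:**
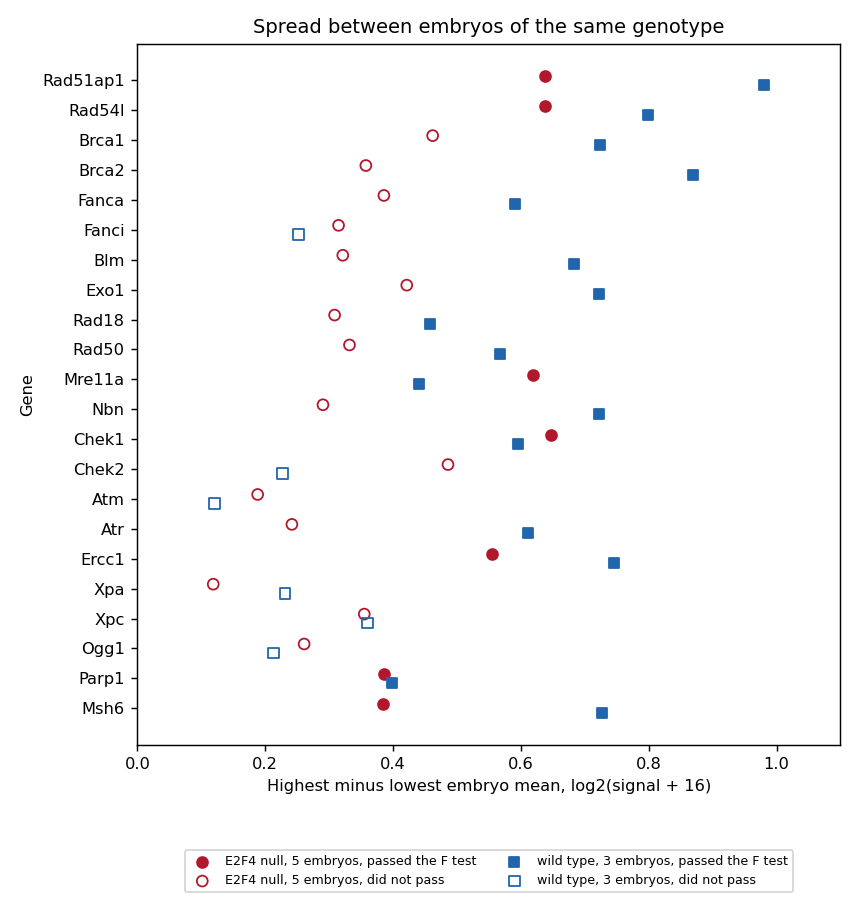
Range between embryo means (highest minus lowest, log2(signal + 16), horizontal axis) for each gene in the 5 E2F4 null embryos (circles) and the 3 wild type embryos (squares), filled where limma's F test over cultures passed. Wild type filled squares reach 0.98 for Rad51ap1, while Atm and Xpa are open in both genotypes.

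The third comparison asked whether the genes moved from embryo to embryo with DNA replication genes. The mean of 32 replication genes deviated from its average over the 8 embryos by -0.16, -0.14, 0.11, 0.17 and 0.19 in null embryos 1 to 5, against 0.04, -0.51 and 0.29 in wild type embryos 1 to 3. The recombination class followed it, at -0.20, -0.07, 0.14, 0.21 and 0.18 in null embryos, against -0.01, -0.48 and 0.22 in wild type. The break sensing class did likewise, from -0.10 to 0.17 in null embryos, against 0.01, -0.41 and 0.13 in wild type. The mean of the excision and mismatch class lay between -0.07 and 0.04 in null embryos, against -0.08 to 0.05 in wild type, but it averages members that moved in opposite directions, such as Msh6 and Ercc1.

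**Figure D3:**
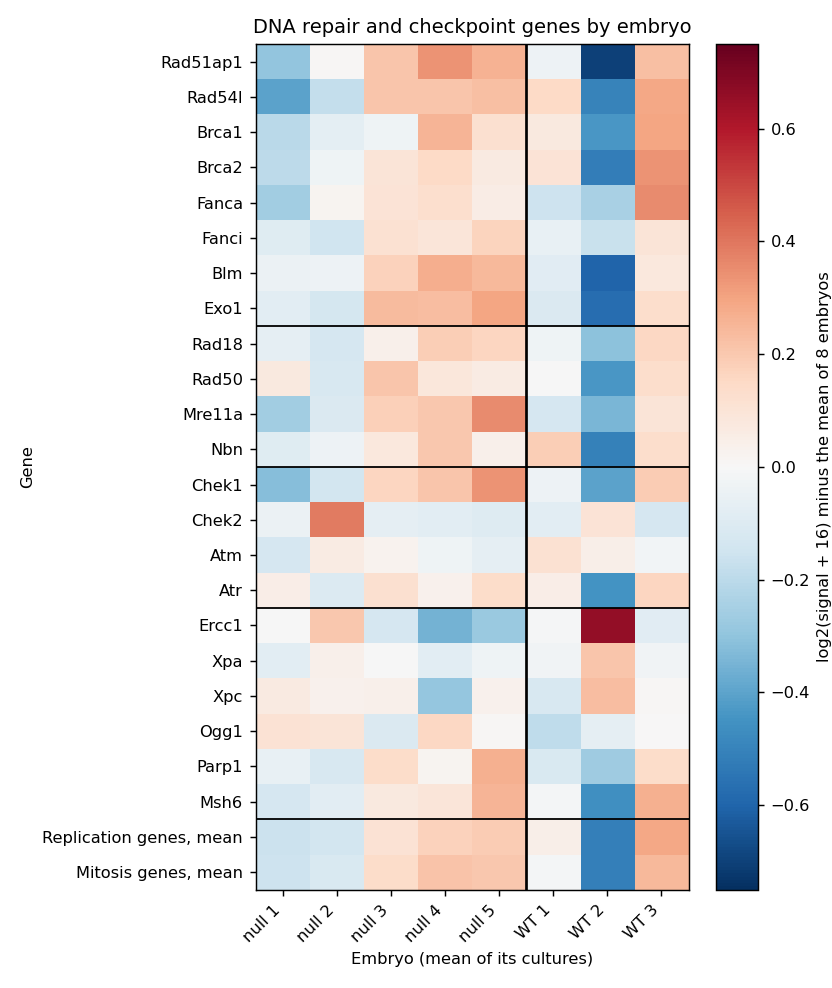
Level of each of the 22 tested genes in each embryo (columns, 5 E2F4 null then 3 wild type), as the embryo's mean log2(signal + 16) minus the gene's average over 8 embryos. Horizontal lines part the 4 classes, and the bottom rows give the means of the replication and mitosis genes. Wild type embryo 2 is blue in every recombination gene and red in Ercc1.

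For each of 7404 genes, Pearson's r with the replication mean over the 8 embryos was tested by exact permutation, two-sided, with adjustment over all genes. The values share arrays, scaling and embryos. Of the 22 genes, 14 were called with a positive r, where 8.33% of all genes were, and Ercc1 with a negative r, where 6.51% were. By Spearman's rho 3 passed, Rad54l, Brca1 and Msh6, where 203 of the 7404 genes did. In the recombination class r ran from 0.80 to 0.96 with a median of 0.93, and 7 of 8 were called. Break sensing genes had a median of 0.88, and 3 of 4 were called. Among the kinases the median was 0.35, and 2 of 4 were called. Excision and mismatch genes ran from -0.90 to 0.98 with a median of -0.27, and of 6 genes 2 were called with a positive and 1 with a negative r. The median over all genes was 0.04. With genotype means removed the medians of the recombination and break sensing classes were 0.96 and 0.89. Those of the kinases and of the excision and mismatch genes were 0.39 and -0.33, against 0.04 over all genes.

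Msh6 followed replication genes most closely, with r = 0.98 and rho = 1.00 (exact permutation adjusted p = 0.00735 and 0.0127). Its signal was 530, 547, 610, 618 and 696 in null embryos, against 574, 416 and 700 in wild type, in the same order as the replication mean. Rad51ap1 had r = 0.95 (exact permutation adjusted p = 0.0259) and rho = 0.88, and Brca1 r = 0.95 (0.0157) and rho = 0.95. Chek1 had r = 0.92 (0.0170) and Atr 0.91 (0.0373), whereas Atm had -0.21 (0.748) and Chek2 -0.56 (0.293). The first pair responds to stalled replication and the second to broken DNA, and the difference between the pairs was not tested. By rank, Chek2 had rho = -0.86, which did not pass (exact permutation adjusted p = 0.0948). Parp1 had 0.84 (0.0493) and Ogg1 0.10 (0.884). Ercc1 had r = -0.90 (0.0398) and rho = -0.81, and Xpa and Xpc -0.76 and -0.63, which did not pass.

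**Figure D4:**
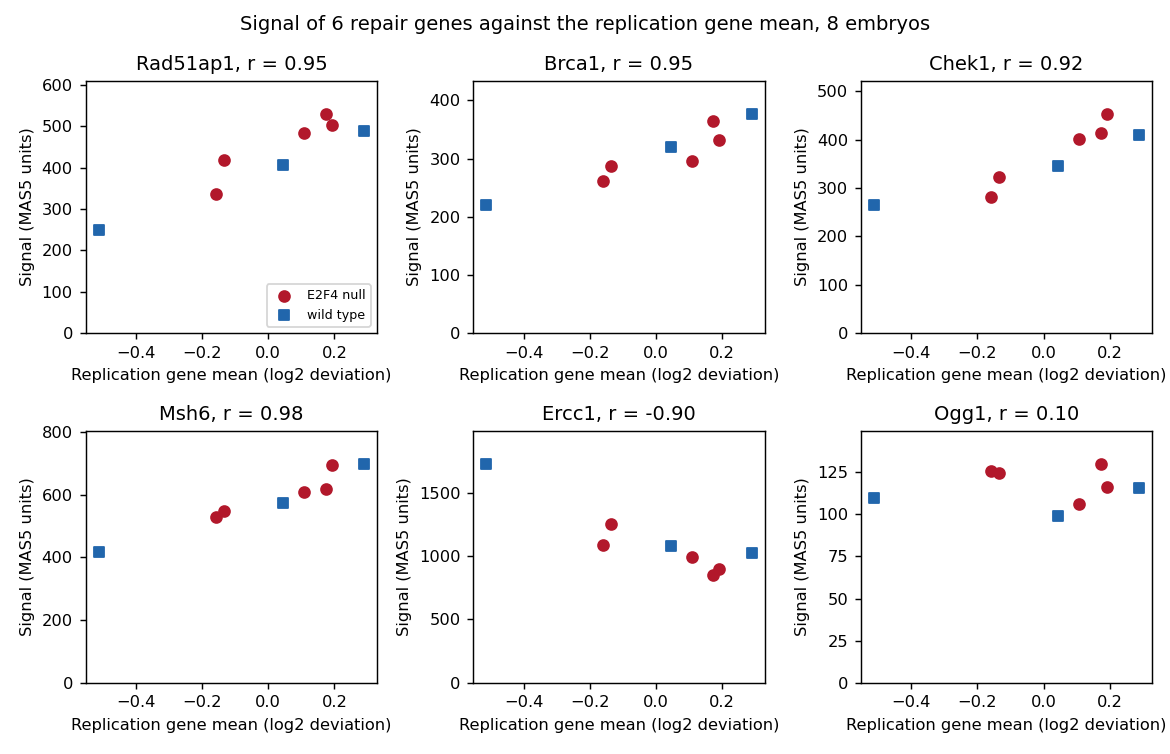
Mean signal of 6 genes in each embryo (vertical axes, MAS5 units, starting at 0) against the replication gene mean (horizontal axes, log2 deviation from its average). Circles are the 5 E2F4 null and squares the 3 wild type embryos. Rad51ap1, Brca1, Chek1 and Msh6 rise from left to right in both genotypes, Ercc1 falls and Ogg1 is flat.

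Without the 2 embryos farthest from the median of the replication mean, null embryo 1 and wild type embryo 2, r over the other 6 stayed at 0.91 for Msh6, 0.94 for Rad54l, 0.86 for Chek1 and 0.84 for Brca1 and Brca2. It was 0.74 for Rad51ap1, 0.60 for Blm, 0.50 for Nbn, -0.75 for Ercc1, -0.87 for Chek2 and -0.72 for Atm. The class medians were 0.79 for recombination, 0.71 for break sensing, 0.07 for the kinases and -0.08 for excision and mismatch genes. Over all genes the median was 0.06. The calls rested more on single embryos: without wild type embryo 2 only Rad54l was called with a positive r, among 39 of 7404 genes, and without any 1 of the other embryos 5 to 7 were. With 7 embryos fewer permutations are possible, so calls are harder to reach. Without wild type embryo 2 r was 0.94 for Msh6, 0.91 for Chek1 and 0.84 for Rad51ap1. It was 0.56 for Rad50, 0.68 for Blm and 0.70 for Nbn, while Ercc1 had -0.71 and Xpa -0.15.

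Genes with and without an E2F word were found at both ends of this measure. The 10 tested genes with a word in the windows searched had r from -0.90 to 0.98 with a median of 0.91, and the 8 with none from -0.76 to 0.96 with a median of 0.84. Rad54l has no word in the window printed above and r = 0.94, while Ercc1 has one and r = -0.90. Chek2 and Atm also hold a word.

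Several of these genes had more than 1 probe set. Of 22 other probe sets of these genes, 10 had a mean signal above the filter. The other 3 of Rad51ap1 had r of 0.89 to 0.99, the brighter of the other 3 of Chek1 0.91, the second of Exo1 0.92, and those of Parp1 0.64 and 0.89. The second of Rad18 had 0.73. Of the other 3 of Brca1, both above the filter had 0.91 and 0.70, and the dimmest, with a mean signal of 33.2, had -0.41, and the dim ones of Chek1, at 12.2 and 7.30, had -0.19 and 0.01. For Ogg1 the second probe set, below the filter, had 0.66 against 0.10, so its 2 probe sets disagreed.

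Some markers of other cells, but not all, moved with the same embryos. The skeletal muscle list rested on Des and Acta1, as its defining factors were dim. Myod1 lay at 4.07 to 30.3 in null embryos, against 11.3 to 29.6 in wild type, and Myog at 3.97 to 33.2 in null embryos, against 7.86 to 10.5 in wild type. The mean of Des and Acta1 deviated by 0.69, 1.37, -0.86, -0.91 and -0.95 in null embryos 1 to 5, against -0.13, 1.65 and -0.86 in wild type. It was thus highest where recombination genes were low, with a median r of -0.91 to the replication mean. Krt18, the 1 epithelial marker past the filter, had 213, 206, 109, 110.1 and 103 in null embryos, against 93.9, 194 and 60.8 in wild type (r = -0.83). Nes, a neural marker, had 730, 731, 298, 334 and 250.4 in null embryos, against 338, 569 and 155 in wild type (r = -0.80), so both were high in null embryos 1 and 2 and wild type embryo 2. The neural list held 2 markers past the filter, with r of -0.80 and 0.65. Of 6 macrophage markers 5 passed the filter, with a median r of 0.22. Fibroblast markers had a median r of -0.05, from -0.79 to 0.92. The highest was that of Pdgfra, a receptor of fibroblasts, with 197, 339, 908, 1110 and 1368 in null embryos, against 852, 191 and 1200 in wild type (exact permutation adjusted p = 0.0140). What part these differences have in the values of repair genes was not tested.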

How the data were processed

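Gene expression was measured on 1-colour Affymetrix arrays, 1 for each of 20 cultures. The deposited values are probe set intensities on a linear scale. The submitters' processing notes name MAS5 and no version. The 2% trimmed mean was 500.2 on all arrays and medians ran from 134.8 to 145.6, so no rescaling was done. A change shared by all genes cannot be seen after such scaling. The number of arrays and embryos limits the precision.

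Of 22690 probe sets, 64 were controls, 20380 had 1 symbol, 691 several and 1555 none listed. Symbols were updated by gene identifier to RefSeq GRCm38.p6 (20351 matched). The brightest probe set stood for a gene, and genes below the 40th percentile of mean signal (83.2) were left out. Values were taken as log2(signal + 16) and averaged per embryo, with titles read as embryo and culture numbers. Fold changes on this scale understate those of low genes.

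Genotypes were compared with limma 3.58.1 (R 4.3.3; lmFit and eBayes with trend, Benjamini-Hochberg over 7436 genes, threshold 0.05), embryos of 1 genotype with its F test over cultures, and correlations by exact permutation of 8 embryos (40320 orders). The fits were tested on simulated data. Members, classes, gene lists and tests were chosen with earlier results of these data known. Named genes were all 30 listed genes, E2f4, and the 3 of each related list with the smallest p. Alternatives covered the pseudocount, filter, scaling, probe sets, cultures, blocks and each embryo left out. Deviations of same-numbered embryos of the genotypes correlated at 0.09, 0.64 and 0.42. Embryos of different numbers were not compared, so whether same-numbered embryos shared a litter or batch was not tested. The numbers were not taken as pairs in the analysis reported, and a setting with them as a block is given below.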

Additional observations from a re-analysis of the deposited data

Results flagged for a closer look

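In 3 genes 1 of the 5 null embryos stood apart, with a gap to its neighbour beyond Dixon's limit for the share of the group's range. Such a gap arises in about 1 of 20 groups by chance, and 24 genes were examined. Chek2 had 224 in null embryo 2, against 156 to 162 in the other null embryos (share 0.904), and 158, 181 and 152 in wild type. Xpc had 90.0 in null embryo 4, against 116 to 120 in the others (share 0.905). Fanca had 222 in null embryo 1, against 273 to 295 in the others (share 0.719). For each of the 3 genes the F test over null cultures did not pass (limma adjusted p = 0.0822, 0.331 and 0.163).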

How the results depend on the processing

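None of the 22 genes was called between genotypes in any of 21 alternatives. Calls over all genes were 80 with the embryo as a random block, 543 with cultures as independent samples, 0 with cultures 1 and 2 only, 210 with the culture number as a replicate block and 0 with the embryo number as a replicate block, against 1 in the analysis reported. Leaving out 1 embryo gave 0 to 11, the 11 without wild type embryo 2. With the embryo number as a replicate block the median difference over the 22 genes was 0.02. In the recombination class it was -0.004 in that setting, with 4 of 8 genes above 0. The excision and mismatch median was 0.113 with the filter at the 60th percentile and 0.091 with the mean of all probe sets. In these settings the recombination median was 0.298 over the 2 genes left and 0.117, against 0.06, and the checkpoint median was 0.128 and 0.046, against 0.09. The checkpoint median was -0.042 without wild type embryo 2 and at most 0.129 without another embryo. F tests over wild type embryos called 1121 to 3391 genes, and 2 to 16 of the 22, with 1 embryo left out, and those over null embryos 990 to 1729 and 4 to 7. Positive correlations with replication genes numbered 39 to 327, and 1 to 7 of the 22, with 1 embryo left out, where fewer permutations are possible. By quantile normalization 11 of the 22 were called and against the mitosis mean 13. Over all alternatives for this correlation, 39 to 666 of all genes were called. The remaining causes were not tested. Genes near the filter are limited by signal over background.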

Other observations

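Some genes of the related lists lay at the far end of the same spread between embryos, and these were chosen after their values were seen. Cdkn1a, the cyclin-dependent kinase inhibitor p21, had 3496, 3616, 2305, 1703 and 1899 in null embryos 1 to 5, against 2473, 4514 and 2074 in wild type embryos 1 to 3. It was highest in wild type embryo 2, where recombination genes were lowest, with r = -0.93 to the replication mean (exact permutation adjusted p = 0.0224). Mdm2, the ubiquitin ligase that degrades p53, had 1331, 1238, 938, 811 and 860 in null embryos, against 882, 1904 and 835 in wild type, with r = -0.97 (exact permutation adjusted p = 0.0197). Polk, a polymerase that copies past damage, had r = -0.99 and the mismatch repair gene Mlh3 -0.90. With the replication genes went Rif1 and Timeless, which act at replication forks, and the nuclease subunit Eme1, with r of 0.98, 0.97 and 0.95. None of these genes was called between genotypes (limma adjusted p of 0.876 to 0.940).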
